A study of Homo sapiens with 12 samples.

Results

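The regions described here were the very broad H3K27ac domains of MDA-MB231, a breast cancer cell line: 852 stretches of chromosomes 1 to 22, each at least 40 kb wide and each holding a peak in every one of 9 libraries. The members were selected on measured peak positions and widths, by merging the peaks of all 9 lists, with overlapping or touching peaks becoming 1 region, and keeping the regions that met both conditions. The 852 domains were 0.726% of the 117312 merged regions and 2.58% of the 33053 regions with a peak in all 9 lists. Every merged region of at least 40 kb had a peak in all 9 lists, so the second condition removed none. Both conditions use the peaks themselves, so width and presence in all libraries are descriptions of the choice and were not tested.

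H3K27ac is acetylation of lysine 27 of histone H3, a mark of active promoters and enhancers. Most acetylated sites are short, whereas long stretches of the mark, often discussed as broad domains, stretch enhancers or super-enhancers, tend to lie at genes that define a cell's identity. CDK8 and CDK19 are closely related kinases, either of which can serve in the kinase module of Mediator, the complex that links enhancer-bound factors to RNA polymerase II.

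The 3 groups had 3 libraries each, and all cells carried a lentivirus for 96 h before chromatin was collected without fixation from 250000 to 500000 cells. The Control cells received the EV-control virus, the CDK19KD cells a virus with CDK19 shRNA and the CDK8KD cells a virus with CDK8 shRNA, all in the same line. The comparisons ask whether the acetylated domains change when either kinase is depleted, and whether the 2 depletions differ. The levels of CDK8 and CDK19 were not measured in the files used here, so the knockdowns were not checked, and 3 Input samples were not analysed here. Nothing in the labels says that the 3 libraries of a group came from separate cultures, so p-values measure only the spread between these libraries. Because genes were not assigned to regions here, domains are named by hg19 coordinates counted from 1, and neither their genes nor markers of the line or of other cell types were analysed here.

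The lists held 60958 to 85366 peaks on chromosomes 1 to 22 and covered 256 to 311 Mb. The number of reads behind each list is unknown, so no counting error can be attached to a value, and wider peaks may come with more reads. No pair of lists shared more than 4 identical peaks. Replicate 3 of Control and replicate 3 of CDK8KD stood apart from the other 7 libraries, with 275 and 305 peaks of at least 40 kb against 65 to 191. The median differences, the counts of non-overlapping groups and the domains rebuilt from fewer lists are given with and without them, and the covered shares library by library.

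The domains had a median width of 52.2 kb (quartiles 45.1 and 66.7 kb), against a median of 7.64 kb over all 33053 regions with a peak in every list. Together they spanned 51.8 Mb, which was 14.2% of the length of those regions. Widths fell off steeply: 283 domains reached 60 kb, 118 reached 80 kb, 64 reached 100 kb and 7 reached 200 kb. The widest was chr8:118804614-119136681, at 332 kb. Just inside the limit were chr18:2923377-2963395 (40019 bp) and chr15:96863479-96903515 (40037 bp), and just outside were chr11:19726161-19766139 (39979 bp) and chr8:26481447-26521429 (39983 bp). The mean share of width under peaks over the 9 libraries was 48.7% and 87.3% for the former and 67.2% and 68.6% for the latter, so the limit separated regions that overlapped in how fully they were covered.

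Most domains were assembled from several peaks rather than called as 1 block. In 325 domains (38.1%) no library had a single peak of at least 40 kb, and in 251 domains exactly 1 library had one. A peak of that width was found in all 9 libraries in 21 domains. The median number of peaks per domain ranged from 3, in replicate 3 of Control and of CDK8KD, to 6, in replicate 2 of CDK19KD.

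**Figure D1:**
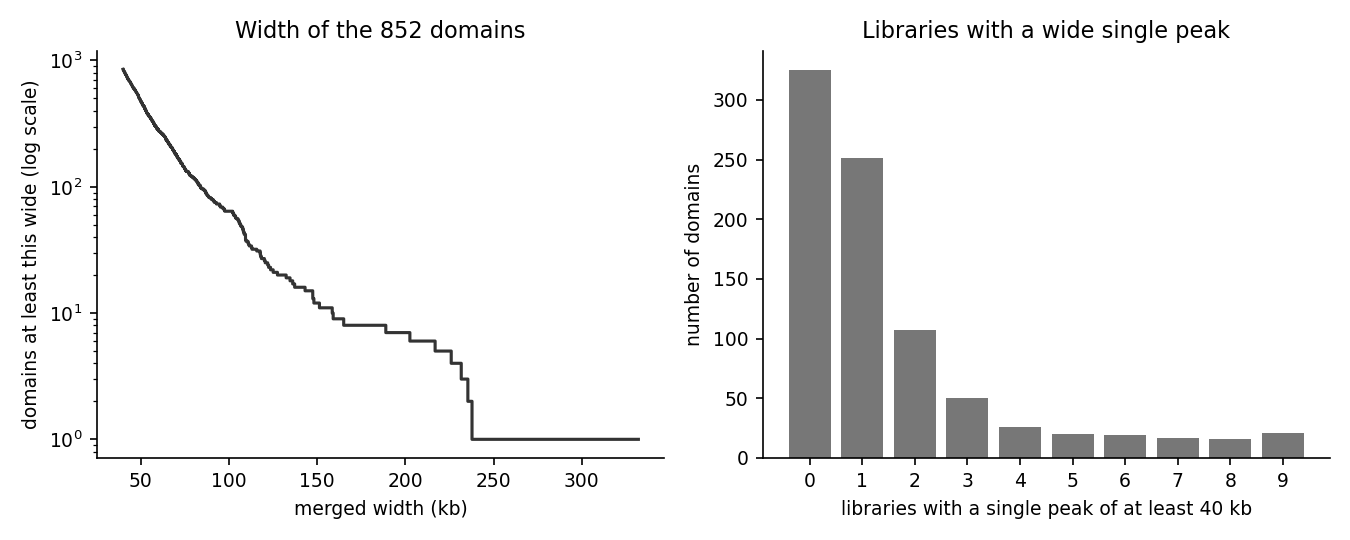
Left: number of domains (vertical, log scale) at least as wide as the merged width on the horizontal axis in kb; the curve falls from 852 domains at 40 kb to 64 at 100 kb and 1 at 332 kb. Right: bars give the number of domains by how many of the 9 libraries had a single peak of at least 40 kb there, 325 with none and 21 with all 9.

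The part of each domain under a peak in all 9 libraries, called its core here, had a median of 47.6% of the domain's width (quartiles 34.9% and 59.6%). The core made up 50% or more of the width in 374 domains (43.9%) and under 10% in 21. It was broken into a median of 4 stretches, and the longest stretch had a median of 11.8 kb. The core breaks wherever any of the 9 libraries lacks a peak, so these stretches describe the peak lists. Whether the acetylation itself is interrupted there was not tested. In 19 domains a single core stretch reached 40 kb. The longest were 74.6 kb in chr11:121954014-122076016, 73.9 kb in chr20:30245464-30393045 and 59.8 kb in chr15:67352040-67495239.

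Over all domains, 47.9% of base pairs were under a peak in all 9 libraries and 4.42% in exactly 1, against 38.7% and 11.5% over the other regions with a peak in every list. Covered share and core rose with merged width as a description: the median core was 37.6% of width in regions of 5 to 10 kb, 43.5% at 20 to 40 kb, 47.0% at 40 to 80 kb and 54.1% at 80 kb or more. The standard deviation of the covered share over the 9 libraries fell over the same classes, with medians of 16.4, 13.4, 12.4 and 10.1 percentage points.

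Single domains marked the ends of this range. In chr1:43387054-43440610 (53.6 kb) the core was 95.3% of the width, and the covered share was 98.9%, 99.1% and 98.6% in Control, 97.3%, 97.7% and 97.9% in CDK19KD and 98.8%, 98.5% and 99.1% in CDK8KD. The 9 libraries differed there by less than 2 percentage points. The next largest core was 90.2%, in chr3:45120011-45192794. At the other end, 2 domains had no base under a peak in all 9 libraries. In chr18:43425112-43482576 the covered share was 2.76%, 66.0% and 89.6% in Control, 5.19%, 37.8% and 19.1% in CDK19KD and 7.06%, 41.6% and 72.7% in CDK8KD. All 3 groups overlapped, and replicate 1 was the lowest in each group. The other was chr2:102462576-102504764, where shares ran from 8.60% in replicate 1 of CDK19KD to 96.1% in replicate 3 of Control.

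The median covered share of the domains was 67.6%, 77.0% and 88.7% in the Control libraries, 68.6%, 71.5% and 74.9% in CDK19KD and 75.5%, 81.1% and 90.2% in CDK8KD (replicates 1, 2 and 3). All 3 CDK8KD libraries lay above all 3 CDK19KD libraries, while Control spanned nearly the whole range and overlapped both. The Control mean was 77.8% ± 10.5, the CDK19KD mean 71.7% ± 3.17 and the CDK8KD mean 82.3% ± 7.38 (SD, n = 3). With 3 libraries a group, an exact permutation test of a pair of groups cannot give a p below 0.1, so none was used for these levels. Domains covered to at least 90% numbered 62, 138 and 366 in Control, 76, 50 and 84 in CDK19KD and 209, 157 and 429 in CDK8KD. Replicate 3 of CDK8KD had the highest share of the 9 libraries in 292 domains and replicate 3 of Control in 276. Since the merged width of a domain includes the peaks of its best covered library, these libraries also set part of the widths.

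The domains took up a nearly constant part of each library's acetylated length. They held 34.2, 39.0 and 44.8 Mb of covered length in Control, 35.1, 36.7 and 38.0 Mb in CDK19KD and 37.3, 40.8 and 45.1 Mb in CDK8KD. As a share of all covered length the Control libraries had 13.5% ± 0.897, the CDK19KD libraries 14.0% ± 0.683 and the CDK8KD libraries 13.9% ± 0.727 (SD, n = 3), and the groups overlapped. Total covered length itself averaged 290 ± 29.3 Mb over the Control libraries, 261 ± 4.41 Mb over CDK19KD and 295 ± 14.0 Mb over CDK8KD (SD, n = 3). Coverage of the domains and of the rest did not always move together in single libraries: from replicate 2 to replicate 3 of Control the covered length rose from 39.0 to 44.8 Mb in the domains and went from 266 to 264 Mb elsewhere. The part of total peak coverage in the differences between groups was assessed only by the scaled values given with each comparison. Scaling multiplies each share by the mean total covered length divided by the library's own. An unscaled share cannot go beyond full coverage. A domain almost fully covered in every library thus comes out highest where total covered length is lowest. The scaled values do not separate total coverage from this ceiling.

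**Figure D2:**
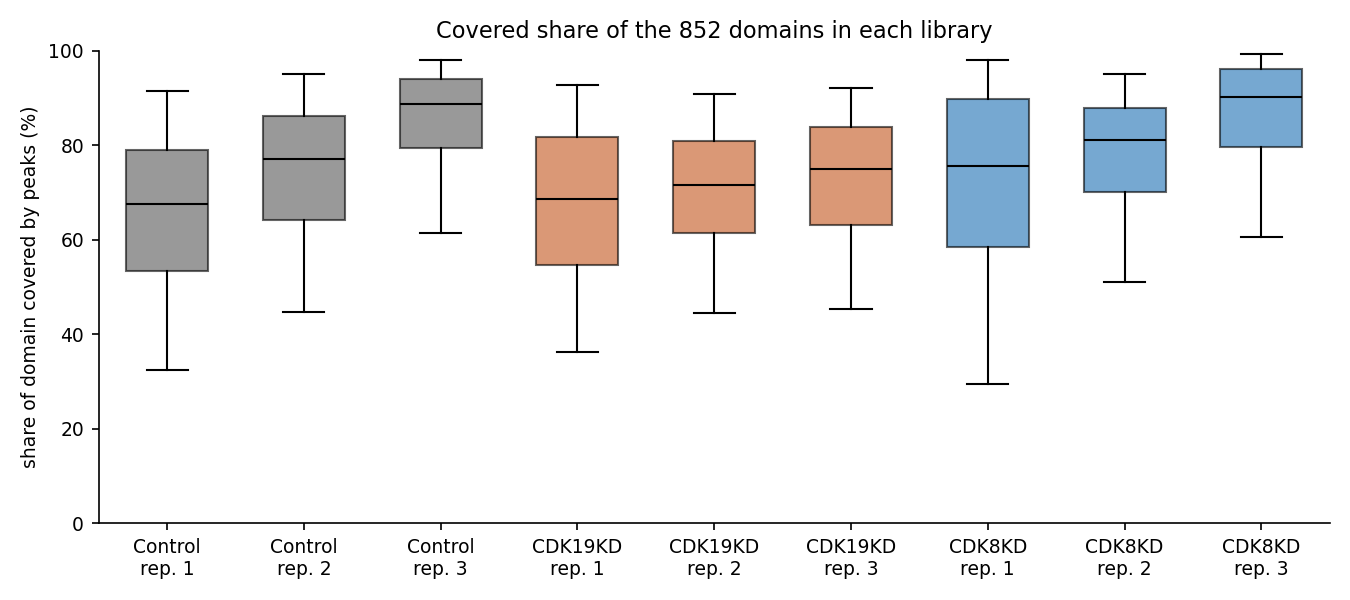
Share of each domain's width under peaks (%, vertical) in the 9 libraries (horizontal); boxes give the quartiles and median over 852 domains and whiskers the 5th and 95th percentiles. Medians run from 67.6% in replicate 1 of Control to 90.2% in replicate 3 of CDK8KD, and the CDK8KD medians lie above the CDK19KD medians.

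Coverage was a plateau with ragged ends. When each domain was divided into 100 equal bins, the mean covered share over the 9 libraries was 20.9% in the first bin and 20.3% in the last, and 79.2% at the centre. Low coverage at the very ends follows from merging, since the outermost bases need a peak in only 1 library. In the outer 10% on each side the mean share was 50.2%, 59.3% and 71.1% in Control, 52.1%, 53.3% and 55.1% in CDK19KD and 60.1%, 63.4% and 73.9% in CDK8KD. There every CDK8KD library was above every CDK19KD library. The ends of a domain are set by the lists that reach furthest, so this order is a description and no support for a difference at the edges. Without the CDK8KD lists 572 of the 852 domains still held a merged region of at least 40 kb, against 765 without the CDK19KD lists. In the middle 20% the shares were 71.3%, 75.5% and 78.1% in CDK19KD and 73.9%, 81.8% and 89.4% in CDK8KD, and these groups overlapped.

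**Figure D3:**
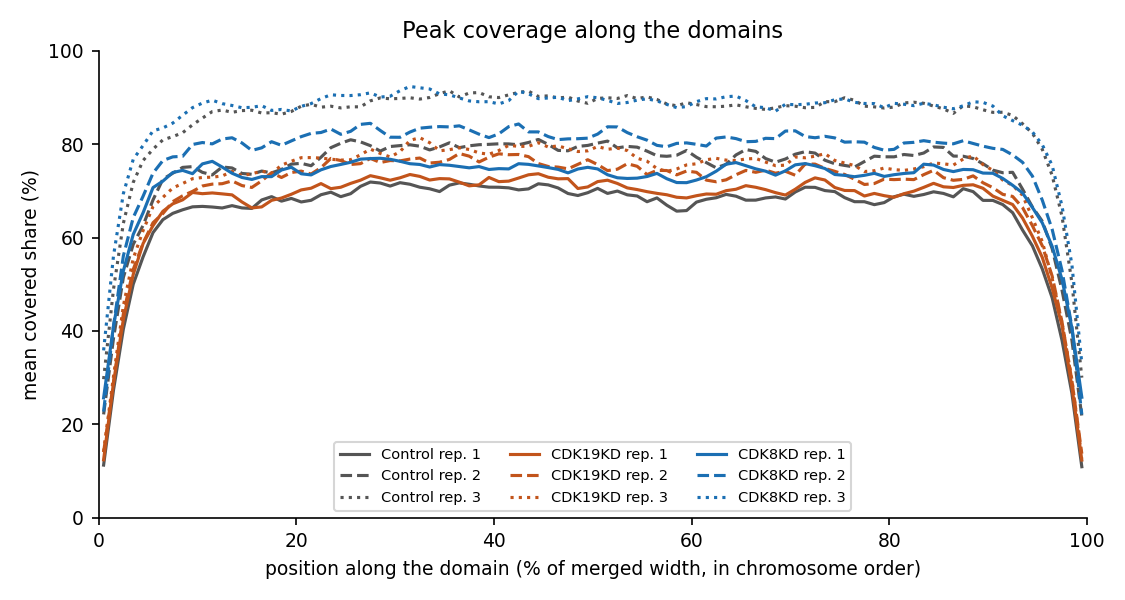
Mean covered share (%, vertical) in 100 bins along the domains (position as % of merged width, horizontal) for the 9 libraries, coloured by group and with line style by replicate number. Every library climbs from the edges to a plateau, 69.3% to 89.8% in the middle 20%, and the highest curves are replicate 3 of Control and replicate 3 of CDK8KD.

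Peaks in the domains were strong within their own lists. Peaks of each list were ranked by the −log10 p that the authors' peak caller gave, and the top peak of a domain had a median percentile of 92.2 to 94.3 in the 9 lists. The top peak was in the strongest 10% of its list in 59.5% to 69.7% of domains, against 17.0% to 23.4% of the other regions with a peak in every list. The authors' fold enrichment of that top peak had a median of 4.55 to 6.35, against 2.46 to 2.97 for all peaks of the same list. Long peaks gather more reads and a domain offers several peaks to choose from, so this contrast is a description.

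The domains were unevenly spread over the chromosomes. Chromosome 20 had 41 domains, or 5.63 per 100 regions with a peak in every list, and domains took up 24.96% of the length of those regions there. Chromosomes 11 and 17 followed with 4.01 and 3.84 per 100. Chromosome 1 had the most domains, 102, at 3.04 per 100. Chromosomes 13 and 16 had the fewest by this measure, 6 domains at 0.712 and 8 at 0.771 per 100. Gains or losses of chromosome arms in this line were not examined, so copy number and acetylation cannot be told apart here.

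Many domains had another close by. The median gap to the nearest domain was 377 kb, and 241 domains (28.3%) lay within 100 kb of another. Joined over gaps of up to 100 kb, those formed 106 groups: 81 pairs, 22 of 3 domains, 2 of 4 and 1 of 5. The group of 5, chr20:48873873-49200993, spanned 327 kb, of which 85.7% was domain. The next were 4 domains in chr7:115848601-116200708 (352 kb) and 4 in chr11:65026434-65357512 (331 kb). The smallest gap, 0.21 kb, separated chr6:45384306-45490900 from chr6:45491111-45539545, so for some neighbours the division into 2 domains rests on a short gap.

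The 10 widest domains, 159 to 332 kb, showed how differently such regions behaved. In the widest, chr8:118804614-119136681, the covered share was 83.6%, 92.1% and 98.5% in Control, 85.8%, 86.9% and 86.0% in CDK19KD and 87.0%, 90.3% and 97.1% in CDK8KD. Coverage was high in all 9 libraries, and every CDK19KD library lay below every CDK8KD library. Its core was 67.2% of the width in 38 stretches, and the same acetylation was called as 3 peaks in replicate 3 of Control, with one of 234 kb, and as 23 in replicate 1.

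Within the widest domains, some were covered almost alike in all groups and others varied mainly between replicates. In chr17:62514901-62740925 (226 kb) the shares lay between 89.3% and 96.3%, with the 3 CDK19KD libraries lowest. In chr2:9335298-9573101 (238 kb) they were 54.0%, 68.3% and 95.9% in Control, 61.1%, 64.7% and 69.0% in CDK19KD and 60.9%, 70.1% and 92.8% in CDK8KD, so the groups overlapped and replicate 3 was the highest in each. The same order within groups held in chr3:57930936-58166388 (235 kb), with 63.6%, 82.7% and 94.7% in Control, 68.7%, 80.4% and 88.9% in CDK19KD and 65.1%, 91.4% and 97.8% in CDK8KD.

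Other very wide domains were highest in CDK8KD. Without the CDK8KD lists, the widest merged region was 148.6 kb in the first described below, on chromosome 1. It was 94.9 kb in the second, on chromosome 9. Part of their width thus came from the group in which they were high, and the differences are descriptions. In chr1:8060897-8292597 (232 kb) the shares were 86.3%, 79.2% and 88.0% in Control, 90.03%, 78.4% and 88.0% in CDK19KD and 96.6%, 91.8% and 98.8% in CDK8KD. In chr9:114650102-114852695 (203 kb) they were 85.4%, 82.6% and 89.9% in Control, 91.3%, 85.6% and 89.97% in CDK19KD and 96.0%, 91.3% and 96.1% in CDK8KD. In chr20:36657446-36822535 (165 kb) they were 77.1%, 76.4% and 85.8% in Control, 78.6%, 84.0% and 80.2% in CDK19KD and 90.3%, 88.6% and 94.5% in CDK8KD. In all 3 every CDK8KD library was above every Control library, and in the domain on chromosome 9 alone 1 CDK19KD library (91.28%) reached above the lowest CDK8KD library (91.25%). In chr8:128804163-129021055 (217 kb) the CDK8KD shares of 86.2%, 94.5% and 97.1% overlapped Control at 69.2%, 77.3% and 97.1%, but lay above CDK19KD at 76.5%, 75.4% and 77.1%.

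In chr9:37897023-38056156 (159 kb) the shares were 65.5%, 71.5% and 76.2% in CDK19KD, 74.1%, 72.4% and 98.0% in Control and 84.8%, 83.6% and 98.2% in CDK8KD, where CDK19KD did not overlap CDK8KD. In chr5:14138786-14327737 (189 kb) they were 70.5%, 77.9% and 73.9% in CDK19KD, 71.5%, 87.7% and 97.4% in Control and 65.8%, 78.6% and 91.8% in CDK8KD, and all groups overlapped. None of the 10 widest domains passed the test across all regions described next.

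Knockdown of CDK19 was set against Control by the difference in covered share. In the domains the median difference was −5.01 percentage points, against −3.10 over all 33053 regions tested, but scaling shares by each library's total covered length turned it to 3.43, against 3.74 over all regions. Because scaling raises almost fully covered domains in CDK19KD, where total covered length was lowest, part of the change of sign may be built in. How large that part is was not tested. Without scaling, 618 domains were lower and 234 higher in CDK19KD (27.5% higher, against 41.3% of all regions), and with scaling 293 were lower and 559 higher (65.6%, against 60.6%). No domain was called by limma at an adjusted p under 0.05 over all regions, in either direction, where the background was 0.00303% called higher and 0% called lower. An unadjusted limma p under 0.05 was found in 24 of the 852 domains, against 3210 of all 33053 regions. The standard error of a domain's difference had a median of 9.73 percentage points.

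All 3 CDK19KD libraries lay below all 3 Control libraries in 49 domains (5.75%, where the background was 8.42%) and above them in 22 (2.58%, background 6.95%). Both shares were below those of all regions. With the replicate number in the limma model, 2 domains were called higher (0.235%, background 1.23%) and none lower (background 0.768%). In that fit 71 of the 852 domains had an unadjusted p under 0.05, against 6209 of all 33053 regions. The median difference was −8.71 without replicate 1 of Control (−3.06 over all regions) and −0.179 without replicate 3 of Control (−3.38 over all regions). In the latter case 417 domains were higher and 435 lower in CDK19KD. Without any other library the median lay between −6.27 and −3.43 (−4.37 to −1.36 over all regions). Without replicate 3 of both Control and CDK8KD, CDK19KD lay below Control in 67 domains (7.86%, against 18% of all regions) and above in 83 (9.74%, against 11.2%).

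The domains with the smallest p in this comparison were both higher in CDK19KD. In chr7:142098210-142140013 (41.8 kb) the covered share was 58.2%, 63.7% and 48.9% in Control, 90.4%, 93.3% and 97.0% in CDK19KD and 63.7%, 65.1% and 72.1% in CDK8KD. CDK19KD stood above all 6 other libraries, and the domain was called as 2 peaks in each CDK19KD library against 5 to 7 in the others. The difference from Control was 36.6 points (SE 10.2). Without the CDK19KD lists the widest merged region there was 19.9 kb, so the domain reached 40 kb through the group in which it was high, and the difference is a description. In chr1:201972824-202037147 (64.3 kb) the shares were 49.8%, 44.5% and 61.5% in Control, 81.3%, 72.6% and 86.0% in CDK19KD and 91.4%, 79.5% and 98.3% in CDK8KD. Both knockdown groups were above Control there, by 28.1 points (SE 9.94) in CDK19KD. The widest merged region in this domain was 63.4 kb without the CDK19KD lists but 26.2 kb without the CDK8KD lists. It thus reached 40 kb through a group that was also above Control, and this difference too is a description.

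Knockdown of CDK8 was set against the same Control libraries, so this comparison and the previous one are not independent. The median difference over the domains was 4.08 points, against 4.25 over all regions, and it kept its sign when shares were scaled by total covered length (2.79, against 2.62). In CDK8KD 546 domains were higher and 306 lower, or 64.1% higher against 60.2% of all regions. No domain was called by limma in either direction (background 0% higher and 0% lower), and the lowest adjusted p was 0.0861. An unadjusted p under 0.05 was found in 120 of the 852 domains, against 5328 of all 33053 regions. All 3 CDK8KD libraries lay above all 3 Control libraries in 132 domains (15.5%, background 15.8%) and below them in 25 (2.93%, background 4.31%), so the domains were near the share of all regions. Without the CDK8KD lists, 51 of the 132 (38.6%) still held a merged region of at least 40 kb, against 67.1% of all domains. Counts of domains higher in CDK8KD are therefore descriptions. Without replicate 3 of both groups, CDK8KD lay above Control in 321 domains (37.7%, against 28.7% of all regions) and below in 60 (7.04%, against 14.6%), and the median difference was 5.12 points (3.48 over all regions).

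With the replicate number in the model, 58 domains were higher in CDK8KD (6.81%, background 7.67%) and 5 lower (0.587%, background 1.33%). The merged width entered both the rule and the share tested: without the CDK8KD lists, 12 of those 58 domains (20.7%) still held a merged region of at least 40 kb, against 572 of all 852 (67.1%). Most of the 58 thus reached the width limit through the group in which they were high, and their count is no support for a difference in the domains. The median difference was 0.422 and 8.48 without replicates 1 and 3 of Control (4.21 and 3.70 over all regions). It was 7.26 and 0.867 without replicates 1 and 3 of CDK8KD (3.74 and 4.39 over all regions). With the block and scaled shares together, an alternative chosen after seeing the data, 17 were higher (2%, against 3.06% of all regions) and 0 lower (against 0.735%). The smallest p belonged to chr1:201972824-202037147, described above, with a difference of 37.8 points, but without the CDK8KD lists its widest merged region was 26.2 kb. Next was chr20:48980055-49022486 (42.4 kb), a member of the group of 5 on chromosome 20. Its shares were 66.5%, 60.6% and 55.3% in Control, 86.0%, 65.8% and 55.5% in CDK19KD and 98.96%, 93.1% and 98.1% in CDK8KD, where CDK8KD stood above all others. The difference from Control was 35.9 points (SE 9.53), and without the CDK8KD lists the widest merged region was 21.3 kb. Both domains reached 40 kb through the CDK8KD libraries, so their differences are given as descriptions.

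CDK19KD and CDK8KD were then compared directly. The median difference, CDK19KD minus CDK8KD, was −8.78 points over the domains and −7.32 over all regions, but with shares scaled by total covered length it was 0.694 and 1.13. The limit given above for scaled shares holds here too. Without scaling 691 domains were lower in CDK19KD and 161 higher (18.9% higher, against 31.3% of all regions), whereas with scaling 396 were lower and 456 higher (53.5%, against 52.9%). The unscaled median was below 0 on all 22 chromosomes, from −17.7 on chromosome 16 to −0.696 on chromosome 4, and the scaled one on 8. Of the 64 domains of at least 100 kb, 63 were lower in CDK19KD without scaling, against 78.0% of regions of 20 to 40 kb, and 31 with scaling. No domain was called by limma (background 0% higher and 0% lower). Unadjusted p was under 0.05 in 116 of the 852 domains, against 5554 of all 33053 regions.

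All 3 CDK19KD libraries lay below all 3 CDK8KD libraries in 201 domains (23.6%, background 19.7%) and above them in 19 (2.23%, background 4.52%). Without the CDK8KD lists, 97 of the 201 (48.3%) still held a merged region of at least 40 kb, against 67.1% of all domains. Many of the 201 thus reached the width limit through the group in which they were high, and their count is a description. Without replicate 3 of both Control and CDK8KD the counts were 223 below (26.2%, against 25.9% of all regions) and 47 above (5.52%, against 6.74%), and 609 domains were lower by their means. With the replicate number in the model 54 domains were lower (6.34%, background 8.27%) and 3 higher (0.352%, background 1.86%), and with scaled shares as well 5 were lower (0.587%, against 2.17% of all regions) and 13 higher (1.53%, against 4.46%). Without the CDK8KD lists, 15 of the 54 (27.8%) still held a merged region of at least 40 kb, so here too most had reached the width limit through the group in which they were high. Of the 54 domains lower than CDK8KD and the 58 higher than Control in the blocked fits, 21 were the same, but both comparisons use the CDK8KD libraries. The median difference was −5.62 without replicate 3 of CDK8KD, against −6.80 over all regions, so the domains then differed less than all regions. Without replicate 3 of Control, 2 domains were called lower in CDK19KD (0.235%, against 0.823% of all regions).

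Those 2 were the domains with the smallest p here. In chr20:42549566-42619971 (70.4 kb) the shares were 64.8%, 72.9% and 84.0% in Control, 48.1%, 51.3% and 58.3% in CDK19KD and 93.4%, 93.5% and 97.2% in CDK8KD. The 3 groups did not overlap one another, with Control between both knockdowns. The difference was −42.1 points (SE 9.84). In chr3:126609594-126653985 (44.4 kb) the shares were 41.4%, 35.5% and 71.4% in Control, 30.4%, 25.3% and 38.7% in CDK19KD and 87.8% and 89.1% in replicates 1 and 2 of CDK8KD, with replicate 3 fully covered. CDK8KD lay above both other groups, and the difference was −60.8 points (SE 14.3). Without the CDK8KD lists the widest merged regions in these domains were 35.0 and 14.3 kb, so both reached 40 kb through the CDK8KD libraries and their differences are descriptions.

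**Figure D4:**
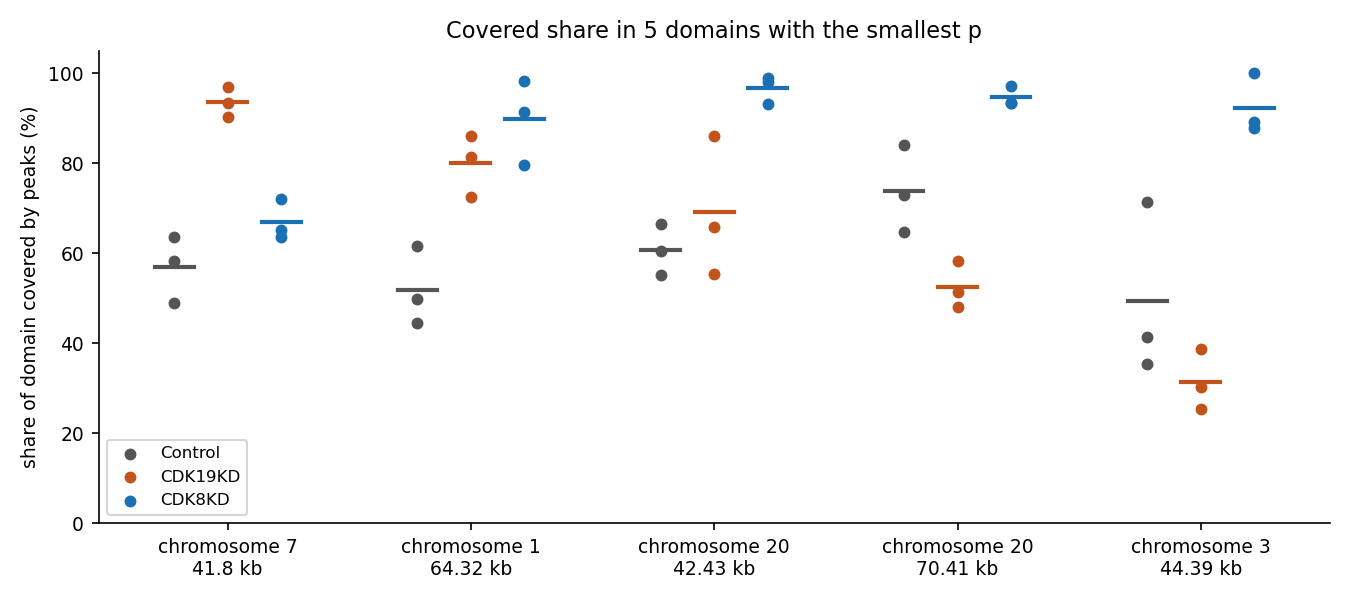
Share of domain width under peaks (%, vertical) in the 9 libraries (points) and the group means (bars) for the 5 domains with the smallest p in a comparison, labelled by chromosome and width (horizontal). The 41.8 kb domain on chromosome 7 was highest in CDK19KD (90.4% to 97.0%), and the 70.4 kb domain on chromosome 20 separated all 3 groups.

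The unscaled median differences kept their sign across domain widths, although scaling turned those that involve CDK19KD over all domains. For domains of 40 to 60, 60 to 100 and at least 100 kb (569, 219 and 64 domains), the median of CDK19KD minus Control was −4.27, −5.86 and −5.80 points, that of CDK8KD minus Control 4.82, 3.57 and 2.35, and that of CDK19KD minus CDK8KD −8.73, −8.56 and −9.13. Regions of 20 to 40 kb had medians of −4.89, 4.08 and −8.15 in the same order. The comparisons share libraries.

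**Figure D5:**
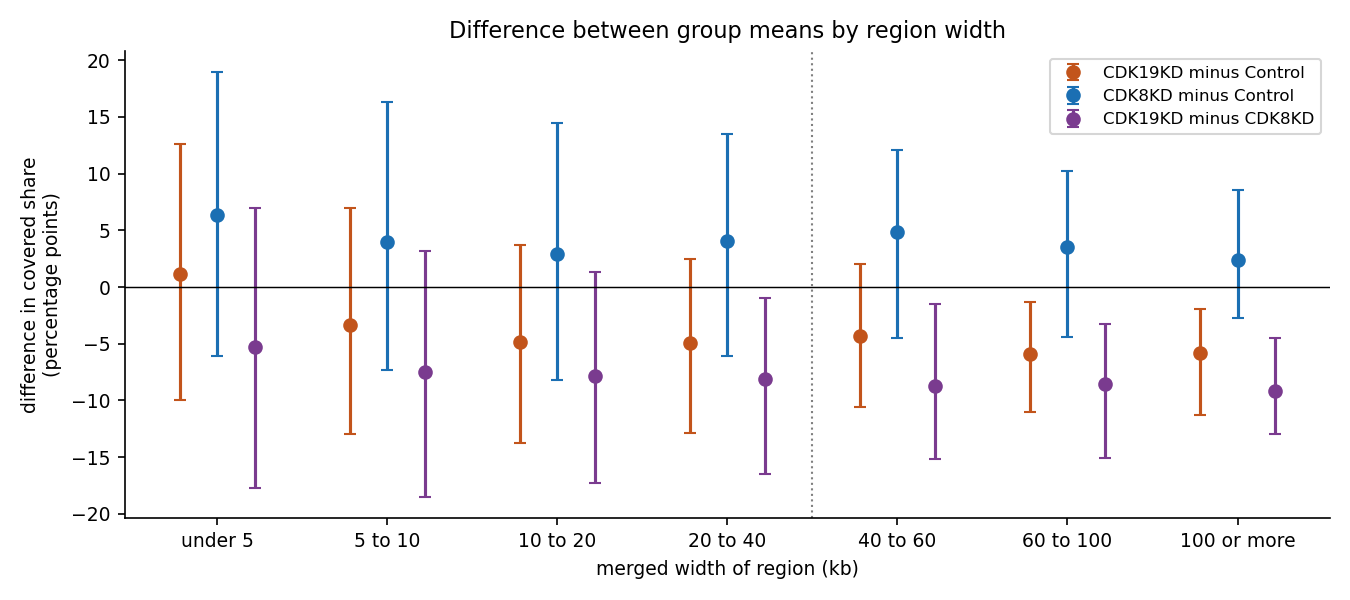
Median difference in covered share between group means (percentage points, vertical; bars give the quartiles over regions) by merged width (kb, horizontal) for the 3 comparisons; the dotted line marks 40 kb, and domains lie to its right. CDK19KD minus CDK8KD has medians of −8.73, −8.56 and −9.13 in the 3 domain classes, close to −8.15 at 20 to 40 kb.

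The spread of a domain's covered share was divided into a part between groups and a part between replicate numbers. The median was 29.97% between groups and 46.8% between replicate numbers in the domains, and the latter part was larger in 521 domains (61.2%). In the other regions with a peak in every list the medians were 32.6% and 32.1%. What the replicate numbers stand for is not given in the labels.

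Some windows in domains passed the test although no whole domain did. The genome was cut into windows of 10 kb, and 76050 windows with a mean covered share of at least 5% were tested, of which 4312 lay in domains. Of those, 540 (12.5%) were fully covered in all 9 libraries. Against Control, limma called 2 domain windows higher (0.0464%, background 0.0552%) and 2 lower (0.0464%, background 0.0237%) in CDK19KD, and 38 higher (0.881%, background 0.634%) and 7 lower (0.162%, background 0.0855%) in CDK8KD. Between the knockdowns 6 windows were higher (0.139%, background 0.224%) and 49 lower (1.14%, background 0.785%) in CDK19KD, the latter in 39 domains. The domains were kept by a width that the CDK8KD lists helped to set: without those lists 572 of 852 (67.1%) still held 40 kb. Shares above background for windows high in CDK8KD are therefore descriptions and no support for a difference in the domains. When the replicate number was a block, the counts for CDK19KD against Control were 0 higher and 0 lower (background 0.00131% each). For CDK8KD against Control they were 39 higher (background 0.484%) and 5 lower (background 0.0408%), and for CDK19KD against CDK8KD 5 higher (background 0.178%) and 55 lower (background 0.717%).

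These window counts depended on single libraries, in the domains and over all windows. The 38 windows higher in CDK8KD became 75 without replicate 1 of Control (1.74%, against 0.936% of all windows), 6 without replicate 2 of Control (0.139%, against 0.0473%), and 9, 8 and 16 without replicates 1, 2 and 3 of CDK19KD. They became 12, 16 and 1 without replicates 1, 2 and 3 of CDK8KD. Over the 9 libraries left out, these shares ran from 0.0232% to 1.74% in the domains and from 0.021% to 0.936% over all windows. The 49 windows lower in CDK19KD than in CDK8KD became 22, 8 and 14 without replicates 1, 2 and 3 of CDK19KD, and 24, 15 and 3 without replicates 1, 2 and 3 of CDK8KD, over a range of 0.0696% to 1.41% in the domains and 0.0513% to 0.742% over all windows. In CDK19KD against Control, leaving out replicate 1 of Control raised the counts to 18 higher (0.417%, against 0.279% of all windows) and 27 lower (0.626%, against 1.23%), and leaving out any other library gave 1 to 6 higher and 0 to 8 lower. The 7 windows lower in CDK8KD than in Control became 33 (0.765%, against 1.66%) and 1 (0.0232%, against 0.00131%) without replicates 1 and 2 of Control, and 3 to 6 without any other library. The 6 windows higher in CDK19KD than in CDK8KD became 2 to 6 (0.0464% to 0.139%, against 0.0158% to 0.233%).

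A few windows show where within a domain the groups separated; they were chosen after their values were seen, and those on chromosomes 7 and 20 lie in domains that reached 40 kb through the group in which they are high. In chr4:143290001-143300000 the covered share was 56.9%, 62.0% and 70.3% in Control, 88.4%, 88.4% and 85.1% in CDK19KD and 25.5%, 21.6% and 18.7% in CDK8KD. The 3 groups did not overlap, with the knockdowns on opposite sides of Control. Without the Control lists the widest merged region in the domain of this window was 36.6 kb, so that domain reached 40 kb through Control. Without the CDK19KD lists it was 49.55 kb and without the CDK8KD lists 58.29 kb. CDK19KD exceeded CDK8KD by 65.4 points (limma adjusted p = 0.00708), a call kept in 14 of 16 alternatives (0.00789 to 0.725) and lost with −log10 q of at least 5 and with the 20000 strongest peaks of each list.

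At the left edge of the 70.4 kb domain on chromosome 20, chr20:42550001-42560000 was covered to 24.0%, 52.0% and 56.1% in Control, 4.94%, 6.65% and 14.7% in CDK19KD and 94.0% and 86.6% in replicates 1 and 2 of CDK8KD, with replicate 3 fully covered. Again no groups overlapped, with CDK8KD highest. The difference between knockdowns was −84.7 points, given as a description because the domain reached 40 kb through the CDK8KD libraries. The limma call of this window was lost without replicate 1, 2 or 3 of CDK19KD or replicate 3 of CDK8KD. This window held most of the longest stretch that was covered in all 3 CDK8KD libraries and in no CDK19KD library, 8.495 kb at chr20:42554519-42563013.

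On chromosome 6, chr6:56620001-56630000 was fully covered in each Control library, 83.9%, 79.6% and 82.5% covered in CDK19KD and 65.6%, 68.2% and 55.7% in CDK8KD. CDK8KD was below Control by 36.8 points (limma adjusted p = 0.0138, 0.000238 to 0.0687 over 16 alternatives), and the call was lost without replicate 2 of Control and with scaled shares. In chr7:142120001-142130000, inside the 41.8 kb domain, the shares were 44.1%, 54.4% and 36.9% in Control and 62.2%, 55.1% and 51.1% in CDK8KD, and each CDK19KD library covered it fully. CDK19KD exceeded Control by 54.9 points, given as a description because the domain reached 40 kb through the CDK19KD libraries. The limma call of this window was kept in 5 of 16 alternatives. It was lost with the replicate block and without any 1 library of either knockdown group.

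Stretches covered in all 3 libraries of a group and in none of another made up little of the domains. Those in CDK8KD and not CDK19KD summed to 859 kb, or 1.66% of domain length against 1.91% in the other regions, and 57 of them were at least 2 kb long. Those in CDK8KD and not Control summed to 606 kb (1.17% against 1.61%). The opposite classes were smaller: 108 kb for CDK19KD and not CDK8KD (0.208% against 0.48%) and 169 kb for Control and not CDK8KD (0.325% against 0.41%). Between Control and CDK19KD the sums were 286 kb for Control and not CDK19KD (0.552% against 0.686%) and 122 kb for the reverse (0.235% against 0.599%). The longest stretch of CDK19KD and not Control, 1.96 kb, lay in the 41.8 kb domain on chromosome 7. Each of the 6 shares was smaller in the domains than in the other regions.

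How many domains exist depended on which libraries were merged. When each library was left out in turn, 468 domains (54.9%) still overlapped a region of at least 40 kb with a peak in all 8 remaining lists, whichever library was missing. The other 384 were lost without some library: 175 without replicate 3 of Control, 134 without replicate 3 of CDK8KD and 10 to 71 without each of the others. Merging the 3 lists of a single group gave 445 regions of at least 40 kb in Control, 224 in CDK19KD and 494 in CDK8KD. They overlapped 435 (51.1%), 216 (25.4%) and 482 (56.6%) of the 852 domains, so fewer domains reached 40 kb on CDK19KD peaks alone. With replicates 1 and 2 only, the numbers of regions were 169 in Control, 135 in CDK19KD and 294 in CDK8KD, and without replicate 3 of Control and of CDK8KD 507 of the 852 domains (59.5%) still held a merged region of at least 40 kb. This order goes with total covered length, which was also lowest in CDK19KD, and its part in the result was not tested.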

How the data were processed

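Per the labels' protocols, H3K27ac was precipitated from native chromatin and sequenced from Nextera XT libraries. MACS2, deepTools and the build hg19 are named in the submitters' processing notes, while versions, settings, aligner and depth are not given in the sources used here. The authors deposited a separate broad peak list for each library. Each peak carries a fold enrichment (a linear ratio), a −log10 p and a −log10 q, all deposited by the authors and used only within a list, and a deposited score that was not used.

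Members and lists were chosen with earlier results of these data known. The covered share is the percentage of a region's width under a library's peaks. Overlap was 1 bp or more. Shares of 33053 regions, and of 10 kb windows (mean share 5% or more), were fitted with limma 3.58.1 (lmFit, eBayes with trend, two-sided) in R 4.3.3 on all 9 libraries, with Benjamini-Hochberg adjustment over all features. The scripts, run with Python 3.11.15, were tested on simulated data. A difference is a group mean minus another in percentage points. Named domains are the 10 widest, the 2 of smallest p in each comparison without calls, the extremes of core, and the neighbours of the width limit. Other domains and windows were named after their values were seen.

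Replicate numbers come from the titles and recur in each group. Deviations from group means correlated between same-numbered libraries at 0.139 to 0.612 over windows (9 of 9 pairs over 0.1) and at 0.0933 to 0.55 over regions (8 of 9). Over the domains alone the same pairs correlated at 0.170 to 0.827 (9 of 9), against −0.816 to 0.237 between libraries with other numbers (3 of 18). The numbers were treated as pairing the samples on the window check, a reading that the region check falls just short of, so fits with the number as a block are printed beside the unblocked ones. Alternatives were other peak, width, window and merging limits, scaling by total covered length, robust moderation, and leaving out each library. Values without replicate 3 of Control and of CDK8KD together, widths without the lists of a group, and the block with scaled shares were chosen after seeing the data. Sequences and genes of the regions were not analysed here.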

Additional observations from a re-analysis of the deposited data

Results flagged for a closer look

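Chromosome X was outside the rule for the domains. Merging the same 9 lists there gave 11 regions of at least 40 kb with a peak in every list, 0.686 Mb in all, the widest 124 kb. On sequences other than chromosomes 1 to 22 and X, 4 such regions were found, all on alternate haplotype sequences of chromosome 6, with widths of 48.2 to 55.4 kb. These signals were singled out because they lie in data that the comparisons did not use, and no control library was set against them.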

How the results depend on the processing

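The number of domains was 1653 with a minimum width of 30 kb and 481 with 50 kb, and 687 to 842 when a library was left out. The replicate block gave domains called where the unblocked limma fit gave none. For CDK19KD against Control 2 were higher (0.235%, against 1.23% of all regions) and 0 lower (against 0.768%). For CDK8KD against Control 58 were higher (6.81%, against 7.67%) and 5 lower (0.587%, against 1.33%). For CDK19KD against CDK8KD 3 were higher (0.352%, against 1.86%) and 54 lower (6.34%, against 8.27%). Each share was below that of all regions. With the block and scaled shares together, CDK19KD against Control gave 5 higher (0.587%, against 4.6% of all regions). CDK8KD against Control gave 17 higher (2%, against 3.06%) and 0 lower (against 0.735%). CDK19KD against CDK8KD gave 13 higher (1.53%, against 4.46%) and 5 lower (0.587%, against 2.17%). The 20000 strongest peaks of each list gave 4 domains lower in CDK19KD than in CDK8KD (0.469%, against 0.399% of all regions). Leaving out a library gave 0 to 2, the 2 without replicate 3 of Control (0.235%, against 0.823% of all regions). Scaling by total covered length, with or without the block, turned the median difference over domains to 3.43 for CDK19KD against Control and 0.694 for CDK19KD against CDK8KD. Such scaling raises almost fully covered domains where total covered length is low, and the part of that ceiling was not tested. Leaving out a library moved the 3 medians over −8.71 to −0.179, 0.422 to 8.48 (CDK8KD against Control) and −11.3 to −5.62. Over all regions the same medians moved over −4.37 to −1.36, 3.70 to 5.77 and −8.43 to −6.56. For domain windows in CDK19KD against Control, the counts higher and lower were 0 and 0 with scaled shares, with the replicate block, with both, and with robust moderation. Over all windows these settings called at most 0.00131% in a direction. The counts were 8 and 10 with the 20000 strongest peaks (0.204% and 0.254%, against 0.476% and 0.473% of all windows). With 5 kb windows they were 4 and 9 (0.0421% and 0.0947%, against 0.106% and 0.0559%). A −log10 q of at least 5 gave 4 higher (0.1%, against 0.147%). Leaving out a library gave 1 to 18 higher (0.0232% to 0.417%, against 0.00526% to 0.279%) and 0 to 27 lower (0% to 0.626%, against 0.00263% to 1.23%). In CDK8KD against Control, a −log10 q of at least 5 gave 25 and 4 (0.625% and 0.1%, against 0.372% and 0.0306% of all windows). Scaled shares gave 8 and 1 (0.186% and 0.0232%, against 0.117% and 0.00657%). Leaving out a library gave 1 to 75 higher (0.0232% to 1.74%, against 0.021% to 0.936%) and 1 to 33 lower (0.0232% to 0.765%, against 0.00131% to 1.66%). The lower count was 4 with the 20000 strongest peaks (0.102%, against 0.206%) and 2 with robust moderation (0.0464%, against 0.05%). It was 4 with no minimum share (0.0928%, against 0.0357%) and 21 with the block and scaled shares (0.487%, against 0.321%). In CDK19KD against CDK8KD, a −log10 q of at least 5 gave 2 and 19 (0.05% and 0.475%, against 0.114% and 0.355% of all windows). Scaled shares gave 3 and 19 (0.0696% and 0.441%, against 0.16% and 0.262%). Robust moderation gave 2 and 32 (0.0464% and 0.742%, against 0.15% and 0.529%). Leaving out a library gave 2 to 6 higher (0.0464% to 0.139%, against 0.0158% to 0.233%) and 3 to 61 lower (0.0696% to 1.41%, against 0.0513% to 0.742%). The higher count was 11 with 5 kb windows (0.116%, against 0.214%) and 36 with the block and scaled shares (0.835%, against 0.899%). The cause of these moves was not tested. Read depth is unknown and limits every comparison of widths between libraries.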
